A study of Mus musculus with 10 samples.

Results

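The S100 family was followed across 4 populations of skin innate lymphoid cells through 9 genes, S100a4, S100a6, S100a8, S100a9, S100a10, S100a11, S100a13, S100a14 and S100a16, out of 47643 gene IDs per deposited table. The members were chosen by name and not by a measured value, and each of the 9 matched a single ID. Innate lymphoid cells (ILCs) are tissue lymphocytes without rearranged antigen receptors. RNA of such cells, sorted from the skin of adult mice of the B6 strain, gave 10 libraries. Epidermal ILCs account for 3 of them, dermal ILCs positive for CCR6 (a chemokine receptor) for 2, dermal ILCs positive for Sca1 (a surface protein encoded by Ly6a) for 2 and subcutaneous ILCs for 3. All groups share the strain and the adult stage, and the labels name no allele, treatment, exact age or pooling. Nothing in them says that replicates are separate animals, so the p-values measure the spread between these samples, which may be technical.

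S100 proteins are small calcium-binding proteins of the EF-hand type that mostly act as dimers. Inside cells, calcium opens a surface with which they hold partners such as annexins, myosin and other cytoskeletal proteins, and several are also released and signal through receptors such as TLR4 and RAGE. In skin the family is known chiefly from keratinocytes and neutrophils, and its genes lie beside those of the cornified envelope in the epidermal differentiation complex.

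All 9 members are protein-coding genes of chromosome 3 (GRCm38, the assembly of mm10, with GENCODE M21). In map order, S100a13 lies at 90514435 to 90524581, S100a14 at 90526856 to 90528837 and S100a16 at 90537254 to 90543151, all on the plus strand. S100a4 follows at 90603771 to 90606045, S100a6 at 90612882 to 90624181 and S100a8 at 90668978 to 90670035 on the same strand, and S100a9 at 90692632 to 90695721 on the minus strand. A gap of 2824766 bases with 60 protein-coding genes separates S100a9 from S100a11, at 93520488 to 93526287, and S100a10, at 93555080 to 93564643, both on the plus strand. A predicted gene, Gm42674, overlaps S100a4 by 2115 bases on the same strand, so reads could be split between the pair, but it received at most 1.87 expected counts in any library. The processed pseudogene S100a11-ps had 0 counts in all libraries.

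RefSeq start windows (GRCm38.p6, 250 bases before the start and 50 after it) were matched for 7 of the 9 members, with none for S100a10 and S100a14. The windows of S100a4, S100a6 and S100a11 are shown because these abundant members followed related patterns over the populations, and that of S100a13 because the divergent gene S100a1, which had another pattern, starts inside it on the opposite strand, 105 bases away. Capitals mark matches, on either strand, to TATAAA, which is a TATA box, CACCC, which Kruppel-like factors bind, GGGCGG, a GC box, and the AP-1 element TGANTCA. All windows are on the plus strand, S100a4 at chr3:90603520-90603819, S100a6 at chr3:90612644-90612943, S100a11 at chr3:93520246-93520545 and S100a13 at chr3:90514185-90514484.
S100a4: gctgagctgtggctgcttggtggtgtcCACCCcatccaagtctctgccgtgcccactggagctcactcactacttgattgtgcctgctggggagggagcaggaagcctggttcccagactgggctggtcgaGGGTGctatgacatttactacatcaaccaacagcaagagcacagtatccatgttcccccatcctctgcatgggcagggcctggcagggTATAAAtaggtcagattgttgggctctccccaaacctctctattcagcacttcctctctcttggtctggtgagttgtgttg
S100a6: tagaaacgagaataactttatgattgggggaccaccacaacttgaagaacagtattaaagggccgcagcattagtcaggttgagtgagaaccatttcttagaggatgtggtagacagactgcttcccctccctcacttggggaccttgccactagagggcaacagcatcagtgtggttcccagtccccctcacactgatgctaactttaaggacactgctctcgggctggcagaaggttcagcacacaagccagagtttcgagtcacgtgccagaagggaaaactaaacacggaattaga
S100a11: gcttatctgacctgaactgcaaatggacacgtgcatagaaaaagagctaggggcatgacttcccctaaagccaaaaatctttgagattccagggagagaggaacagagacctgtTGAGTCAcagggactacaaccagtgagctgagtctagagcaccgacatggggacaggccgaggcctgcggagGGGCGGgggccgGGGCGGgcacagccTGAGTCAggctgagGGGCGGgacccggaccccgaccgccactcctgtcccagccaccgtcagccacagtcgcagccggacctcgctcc
S100a13: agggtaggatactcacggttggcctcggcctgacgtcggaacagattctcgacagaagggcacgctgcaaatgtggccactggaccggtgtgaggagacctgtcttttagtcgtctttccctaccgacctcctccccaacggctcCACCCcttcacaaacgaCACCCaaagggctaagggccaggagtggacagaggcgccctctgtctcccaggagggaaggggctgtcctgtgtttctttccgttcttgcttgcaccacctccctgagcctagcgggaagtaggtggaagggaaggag

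These letters differ between the 3 abundant members. The S100a4 window holds 1 TATAAA, 31 bases before the start, and 2 CACCC. The S100a6 window has no match to any of the 4 motifs. The S100a11 window holds 2 TGANTCA and 3 GGGCGG, and that of S100a13 holds 2 CACCC. Among all 32851 RefSeq windows of this length, 13.6% hold TATAAA, 7.81% TGANTCA, 57.5% CACCC and 35.7% GGGCGG. GC content was 55.3% for S100a4, 49.3% for S100a6, 61.7% for S100a11 and 59.3% for S100a13, against a median of 52.7%. A match is a run of letters only.

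Library totals ranged from 11627222 to 18118544 expected counts, and mitochondrial transcripts took 1.61% to 4.90% of them. Of an ILC list, Ptprc, Thy1, Il7r, Id2, Gata3, Rora, Il2ra, Il2rg and Zbtb16 were detected in every library. Genes of other cell types were present too. A keratinocyte list of 12 genes summed to 3014 to 8278 CPM in the epidermal, 1618 to 2363 CPM in the dermal and 109 to 249 CPM in the subcutaneous libraries. The 12 macrophage and dendritic cell genes summed to 1.81 to 5.80 CPM in the epidermal and 4023 to 7486 CPM in the subcutaneous libraries, and the 7 genes of simple and glandular epithelium to 31.7 to 42.4 CPM and 1457 to 4356 CPM. The part of these cells in the results was not tested except where a value is given, and in bulk samples fewer cells of a type and less RNA per cell cannot be told apart. CPM is the expected count scaled to a common library size after TMM normalization. TPM, the deposited value per transcript length, is used to compare genes with each other.

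The skin ILC libraries held high levels of 4 members. By mean TPM over the 10 libraries, S100a6 ranked 15th, S100a4 18th, S100a11 28th and S100a10 51st among all genes, followed by S100a13 at rank 588, S100a16 at 1425 and S100a14 at 4088. S100a8 and S100a9 were near the detection limit. The 9 members together made 1.93%, 2.25% and 1.89% of all TPM in the epidermal libraries, 2.21% and 2.13% in the dermal CCR6+, 1.95% and 1.94% in the dermal Sca1+ and 1.10%, 1.18% and 1.40% in the subcutaneous ones. Every subcutaneous library was thus below every library of the other groups, and S100a4, S100a6, S100a10 and S100a11 made 96.9% to 98.3% of the family's TPM.

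**Figure D1:**
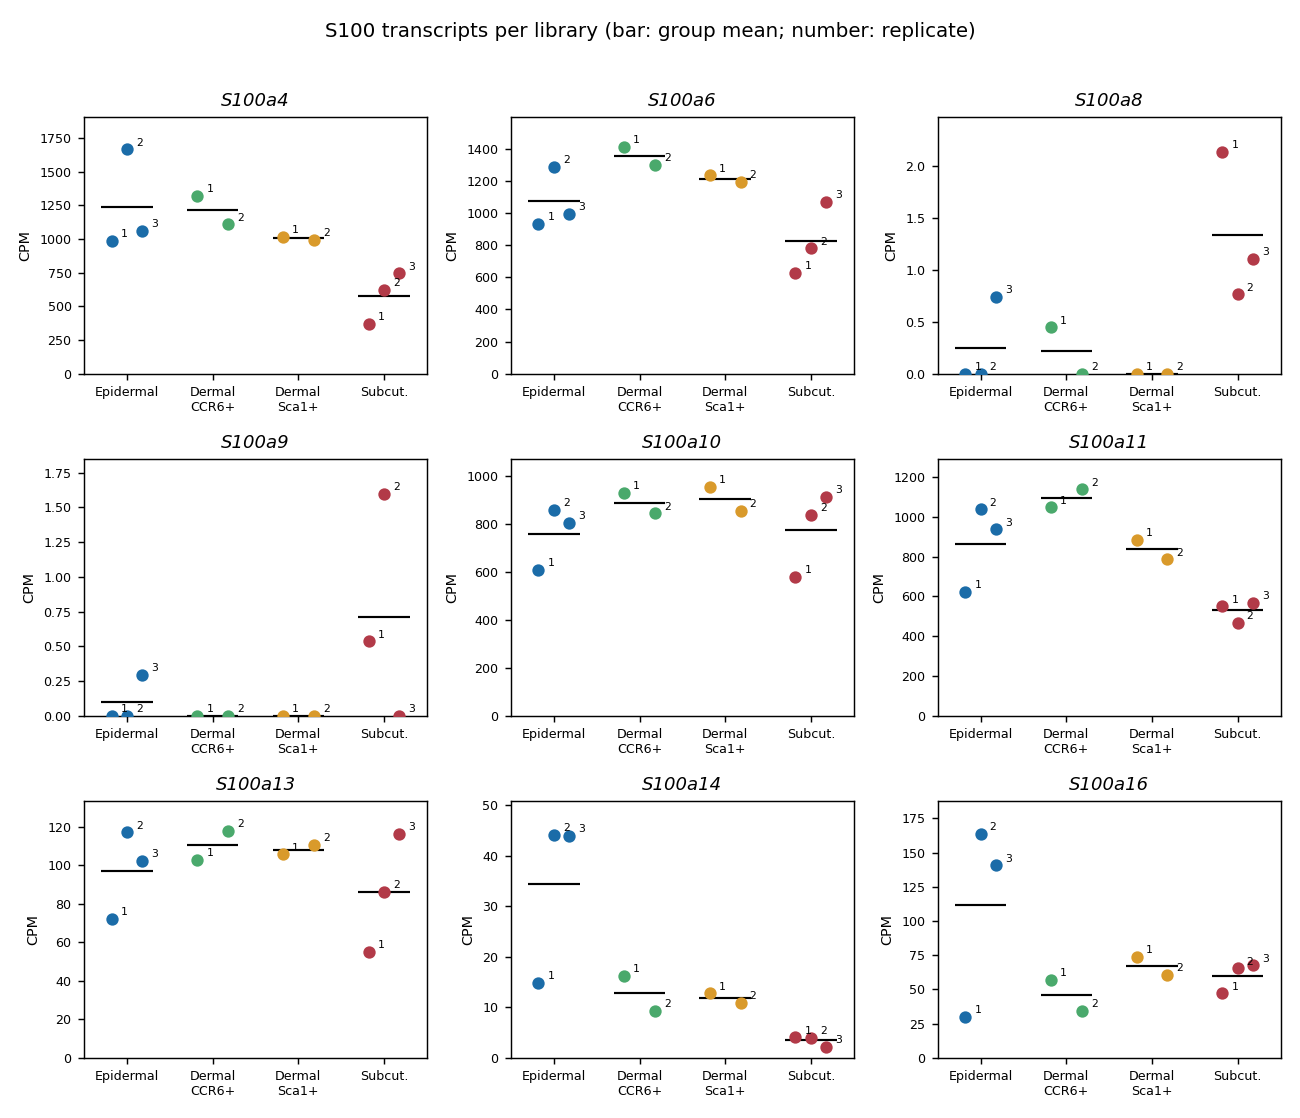
CPM of each of the 9 S100 genes (vertical axes, linear, from 0) in the 10 libraries by population; points are libraries with their replicate number and bars are group means. S100a4, S100a11 and S100a14 are higher in each epidermal library than in any subcutaneous library, S100a10 overlaps in every comparison, and S100a8 and S100a9 stay at or below 2.14 CPM.

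Epidermal ILC libraries held more S100a4, S100a11 and S100a14 RNA than subcutaneous ones, and dermal CCR6+ libraries held more S100a11 RNA than subcutaneous ones. These were the calls (Benjamini-Hochberg adjusted p under 0.05 in edgeR's quasi-likelihood test over 16208 genes) among 8 members tested, S100a9 having too few counts. Between epidermal and subcutaneous ILCs 3 of 8 members were called, all higher in the epidermis, where 20.2% of all genes were called, 6.87% as higher in epidermal and 13.3% as lower. The members' median log2 fold change was 0.54, against -0.02 over all genes. Between dermal CCR6+ and subcutaneous ILCs 1 of 8 was called, where 7.46% of all genes were called and 3.75% as higher in CCR6+, and the members' median was 0.54 against -0.08 over all genes. Both comparisons share the subcutaneous libraries.

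Separation of the libraries was also counted. All epidermal libraries lay above all subcutaneous ones for 3 of the 8 tested members (S100a4, S100a11 and S100a14) and below for 1 (S100a8), against 17.2% and 22.5% of all tested genes. CCR6+ libraries lay above all subcutaneous ones for 4 (S100a4, S100a6, S100a11 and S100a14; all genes 19.8%) and below for S100a8 (23.5%). Sca1+ libraries lay above for the same 4 members (15.7%) and below for S100a8 (18.3%). CCR6+ exceeded Sca1+ libraries for S100a4, S100a6 and S100a11 (19.3%) and were lower for S100a16 (20.2%), epidermal exceeded Sca1+ libraries for S100a14 (19.0%), and epidermal libraries were below CCR6+ ones for S100a6 and S100a11 (19.0%).

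No member was called in the other 4 comparisons by edgeR. Between dermal Sca1+ and subcutaneous ILCs, where edgeR called 2.20% of genes, 4 members were higher and 1 lower at an unadjusted p under 0.05. DESeq2 called 1 member there among 1193 genes, and limma 5 among 818. Between epidermal and dermal CCR6+ ILCs, where edgeR called 6.18% of genes, 2 members were higher at an unadjusted p under 0.05. DESeq2 called 0 members there, with 2001 genes called, and limma 1 among 1030. Between epidermal and dermal Sca1+ ILCs, where edgeR called 11.4%, 1 member was higher at an unadjusted p under 0.05. DESeq2 and limma called 1 member each there, among 2919 and 2317 genes. Between the dermal populations, where edgeR called 0.642% of genes, 0 members reached an unadjusted p under 0.05. DESeq2 and limma called 0 members there, with 557 and 140 genes called. The share of all genes at an unadjusted p under 0.05 was not counted, so these member counts have none beside them. The members' medians in these comparisons were 0.44 for Sca1+ minus subcutaneous (all genes -0.03), -0.08 for epidermal minus CCR6+ (all genes 0), 0.18 for epidermal minus Sca1+ (all genes 0) and 0.14 for CCR6+ minus Sca1+ (all genes -0.01), and they stayed the same with S100a8 set to its bound where a group had no count of it.

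**Figure D2:**
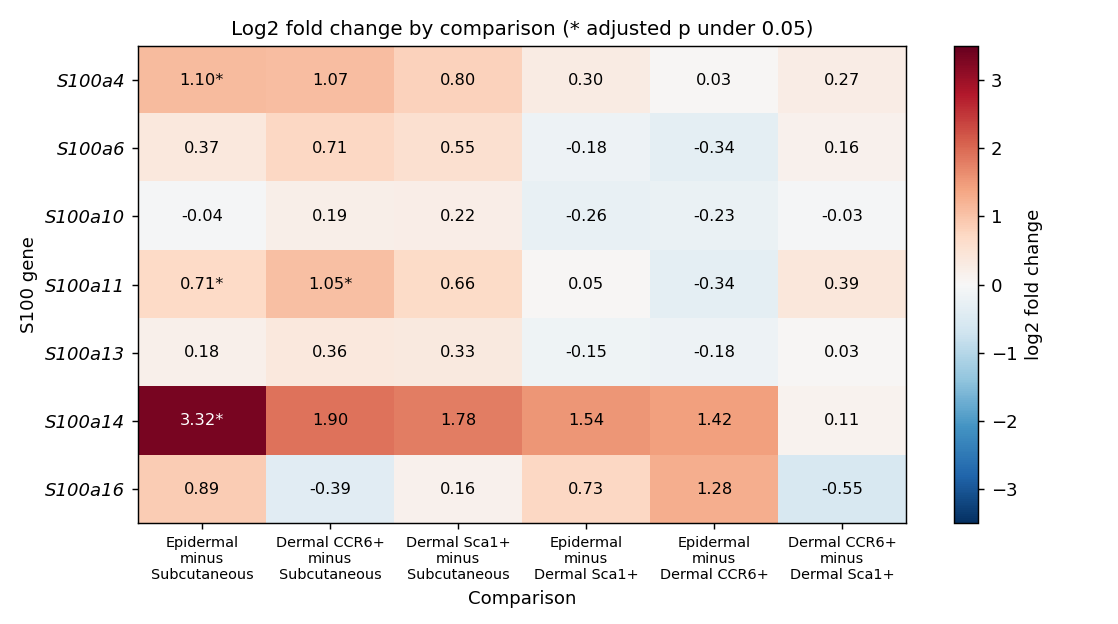
Log2 fold changes (edgeR, first named population minus the other) of 7 S100 genes in the 6 comparisons, with color from -3.5 to 3.5 and a star where the adjusted p is under 0.05. The stars are on S100a4, S100a11 and S100a14 in epidermal minus subcutaneous and on S100a11 in dermal CCR6+ minus subcutaneous ILCs, and S100a8 and S100a9 are left out for their low counts.

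S100a4 encodes a protein known for binding nonmuscle myosin heavy chain and for its link to cell motility. The epidermal libraries held 987, 1666 and 1062 CPM, the dermal CCR6+ libraries 1319 and 1109.9 CPM, the dermal Sca1+ libraries 1016 and 995 CPM, and the subcutaneous libraries 371, 621 and 746 CPM. All 7 epidermal and dermal libraries thus lay above all 3 subcutaneous ones, while the epidermal range spanned both dermal groups. Group means were 1239 ± 372 CPM (SD, n = 3) in epidermal, 1215 ± 148 (n = 2) in CCR6+, 1006 ± 14.8 (n = 2) in Sca1+ and 579 ± 191 (n = 3) in subcutaneous ILCs. The epidermal level was 2.14-fold the subcutaneous one, a log2 fold change of 1.10 ± 0.28 (SE, adjusted p = 0.0189 by edgeR). Without epidermal replicate 2, its highest library, the call was lost (edgeR adjusted p = 0.0706). The dermal CCR6+ difference from subcutaneous ILCs was of like size, 1.07 ± 0.30 on the log2 scale, and was not called by edgeR (adjusted p = 0.0619). DESeq2 (adjusted p = 0.0114), limma (0.00448) and edgeR without a filter beyond 1 count (0.000855) or with a filter of 5 CPM (0.0466) called it.

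S100a6, calcyclin, whose protein binds annexins and the calcyclin-binding protein, had the highest mean TPM of the family. It was present at 932, 1287 and 996 CPM in epidermal, 1412 and 1299 CPM in CCR6+, 1234 and 1194 CPM in Sca1+ and 628, 781 and 1071 CPM in subcutaneous libraries. Both dermal groups lay above all subcutaneous libraries, and the third subcutaneous library reached into the epidermal range. No difference in S100a6 passed edgeR's test with all libraries. The log2 fold change over subcutaneous ILCs was 0.37 ± 0.21 in epidermal (edgeR adjusted p = 0.258), 0.71 ± 0.24 in CCR6+ (0.102) and 0.55 ± 0.24 in Sca1+ ILCs (0.302). Without subcutaneous replicate 3, the CCR6+ difference was called (edgeR adjusted p = 0.0453), and with all libraries DESeq2 (0.044) and limma (0.0133) called it. Limma also called the epidermal (adjusted p = 0.0299) and Sca1+ differences (0.0435). The ratio of S100a4 to S100a6 TPM was 1.15 to 1.40 in the epidermal, 0.971 ± 0.041 (mean and SD, n = 2) in the CCR6+, 0.878 to 0.900 in the Sca1+ and 0.625 to 0.860 in the subcutaneous libraries, so these neighbouring genes did not keep a constant ratio.

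S100a11, whose protein binds annexin A1 and takes part in membrane repair, had 623, 1037 and 936 CPM in epidermal, 1049 and 1139 CPM in CCR6+, 885 and 787 CPM in Sca1+ and 549.7, 469 and 569 CPM in subcutaneous libraries. Its subcutaneous values were the lowest of the 4 groups with no overlap, and both CCR6+ libraries lay above every other library. Group means were 865 ± 216 CPM (SD, n = 3) in epidermal, 1094 ± 63.9 (n = 2) in CCR6+, 836 ± 69.1 (n = 2) in Sca1+ and 529 ± 53.3 (n = 3) in subcutaneous ILCs. The CCR6+ mean was 2.07-fold the subcutaneous one, with a log2 fold change of 1.05 ± 0.22 (edgeR adjusted p = 0.0181). This call was lost without CCR6+ replicate 1 (edgeR adjusted p = 0.056), CCR6+ replicate 2 (0.127) or subcutaneous replicate 2 (0.0669). Epidermal ILCs had 1.63-fold the subcutaneous level, a log2 fold change of 0.71 ± 0.20 (edgeR adjusted p = 0.0327), and this call was lost without epidermal replicate 2 (0.116) or 3 (0.111), without subcutaneous replicate 1 (0.0666), 2 (0.111) or 3 (0.0617), in a fit of only these 2 groups (0.0708) and with the title number as a block (0.06). Epidermal ILCs and CCR6+ ILCs did not overlap, with the epidermal libraries lower, but the log2 difference of -0.34 ± 0.22 was not called (edgeR adjusted p = 0.465).

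Markers of other cells were set beside S100a4 and S100a11. The macrophage, simple epithelial, fibroblast, endothelial and neutrophil lists each summed to more in every subcutaneous than in any epidermal library, the opposite of these S100 genes. The keratinocyte sum moved with them between epidermal and subcutaneous libraries. In every dermal library that sum was below the epidermal ones. The CCR6+ sums were 2274 and 1618 CPM, beside 1319 and 1109.9 CPM of S100a4 and 1049 and 1139 CPM of S100a11. In CCR6+ libraries S100a11 was above every epidermal library, and S100a4 was inside the epidermal range. The Sca1+ sums were 2363 and 2085 CPM, beside 1016 and 995 CPM of S100a4 and 885 and 787 CPM of S100a11. Within the epidermal group that sum was 3014, 8260 and 8278 CPM in replicates 1 to 3, beside 987, 1666 and 1062 CPM of S100a4 and 623, 1037 and 936 CPM of S100a11. Both S100 genes were lowest in the replicate with the lowest keratinocyte sum, and the part of keratinocyte RNA in their differences was not tested.

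S100a10, whose protein does not need calcium and forms a stable complex with annexin A2 that binds plasminogen activators at the cell surface, was the steadiest abundant member. Its libraries held 609, 859.8 and 807 CPM in epidermal, 931 and 846 CPM in CCR6+, 956 and 856 CPM in Sca1+ and 579.9, 841 and 914 CPM in subcutaneous ILCs. The highest library was 1.65 times the lowest, against 4.49 times for S100a4. Epidermal and subcutaneous ILCs differed by -0.04 ± 0.21 on the log2 scale (edgeR adjusted p = 0.935), and no comparison gave a log2 difference beyond -0.26 or 0.22.

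Anxa2, the gene of its partner, did not follow S100a10. Anxa2 had 1177, 1547 and 1488 CPM in epidermal, 1537 and 1381 CPM in CCR6+, 1029 and 888 CPM in Sca1+ and 517, 683 and 524 CPM in subcutaneous libraries. It was higher in epidermal (log2 fold change 1.29 ± 0.18, edgeR adjusted p = 0.000725) and in CCR6+ ILCs (1.34 ± 0.20, adjusted p = 0.00287) than in subcutaneous ILCs, and both calls held in all alternatives run. The ratio of S100a10 to Anxa2 TPM was 1.52, 1.61 and 1.58 in the epidermal, 1.77 and 1.79 in the CCR6+, 2.76 and 2.87 in the Sca1+ and 3.31, 3.64 and 5.10 in the subcutaneous libraries. The 4 groups did not overlap in this ratio, with means of 1.57 ± 0.05 (SD, n = 3), 1.78 ± 0.01 (n = 2), 2.81 ± 0.08 (n = 2) and 4.02 ± 0.96 (n = 3), and no test of the ratio was run. S100a10 transcripts outnumbered Anxa2 transcripts in every library.

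**Figure D3:**
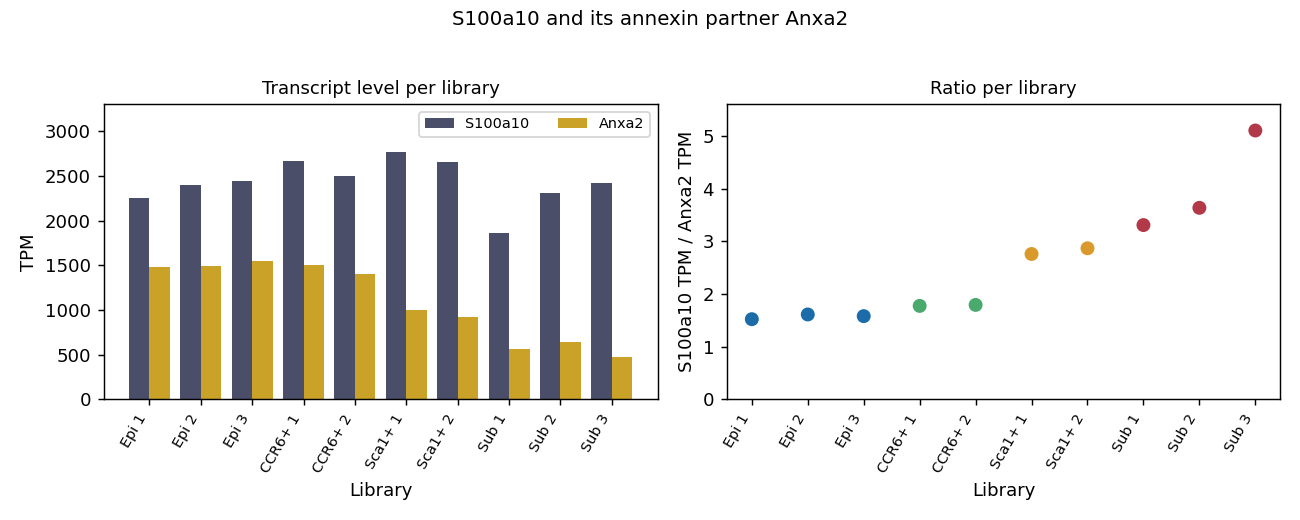
TPM of S100a10 and Anxa2 in each library (bars, from 0) and the ratio of S100a10 to Anxa2 TPM per library (points, colored by population). S100a10 keeps between 1856 and 2764 TPM, Anxa2 runs from 1551 TPM in an epidermal to 475 TPM in a subcutaneous library, and the ratio runs from 1.52 to 5.10.

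S100a13, whose protein takes part in the export of cytokines that lack a signal peptide, showed no called difference. It had 72.3, 117 and 102 CPM in epidermal, 103 and 118 CPM in CCR6+, 106 and 111 CPM in Sca1+ and 55.1, 86.2 and 116 CPM in subcutaneous libraries. The lowest epidermal and the lowest subcutaneous value were both those of replicate 1, and the groups overlapped in every comparison. Epidermal minus subcutaneous was 0.18 ± 0.28 on the log2 scale (edgeR adjusted p = 0.727).

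S100a1, the gene that starts opposite S100a13 in the window printed above and is not among the 9, did differ. S100a1 encodes a regulator of calcium handling in muscle. It had 13.4, 13.5 and 12.1 CPM in epidermal, 19.8 and 21.7 CPM in CCR6+, 38.7 and 44.4 CPM in Sca1+ and 33.5, 40.9 and 49.2 CPM in subcutaneous libraries. It was 3.16-fold higher in subcutaneous (epidermal minus subcutaneous -1.66 ± 0.26, edgeR adjusted p = 0.00122) and 3.19-fold higher in Sca1+ (-1.67 ± 0.28, adjusted p = 0.00301) than in epidermal ILCs, calls that held in all alternatives run. The ratio of S100a13 to S100a1 TPM was 4.86 to 7.91 in the epidermal, 4.72 to 4.95 in the CCR6+, 2.24 to 2.41 in the Sca1+ and 1.49 to 2.14 in the subcutaneous libraries. The preparation does not mark strand, but these genes overlap by no bases in the annotation.

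S100a14, a member known from epithelia, had the widest range of the members detected in every library, 19.9-fold from the lowest to the highest. Its libraries held 14.9, 44.1 and 44.0 CPM in epidermal, 16.2 and 9.31 CPM in CCR6+, 12.8 and 10.8 CPM in Sca1+ and 4.08, 3.96 and 2.22 CPM in subcutaneous ILCs. Every epidermal and dermal library lay above every subcutaneous one, and the first epidermal library lay inside the CCR6+ range. The epidermal mean, 34.3 ± 16.9 CPM (SD, n = 3), was 9.99-fold the subcutaneous 3.42 ± 1.04 CPM (n = 3), with a log2 fold change of 3.32 ± 0.52 (edgeR adjusted p = 0.0014), and this call held in all alternatives run. CCR6+ and Sca1+ ILCs exceeded subcutaneous ILCs by 1.90 ± 0.53 and 1.78 ± 0.53 on the log2 scale without passing the test (edgeR adjusted p = 0.0605 and 0.136), while DESeq2 (0.017 and 0.0418), limma (0.0162 and 0.0334) and edgeR without a filter beyond 1 count (0.0142 and 0.0415) called both. Epidermal exceeded Sca1+ ILCs by 1.54 ± 0.56, which was called only without epidermal replicate 1 among the single libraries left out (edgeR adjusted p = 0.111 with it and 0.0312 without), and which DESeq2 (0.0478) and limma (0.0165) called with all libraries. The keratinocyte sum moved with S100a14. Per 1000 CPM of keratinocyte genes, S100a14 amounted to 4.93, 5.34 and 5.32 CPM in epidermal, 7.14 and 5.75 CPM in CCR6+, 5.41 and 5.19 CPM in Sca1+ and 16.4, 27.9 and 20.3 CPM in subcutaneous libraries. It thus kept a narrow ratio to these genes in the 7 epidermal and dermal libraries and a higher one in the subcutaneous libraries. The simple epithelial sum was 4356, 1457 and 1940 CPM in subcutaneous replicates 1 to 3. It was highest in the replicate with the lowest ratio, and its part was not tested.

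S100a16, a widely expressed member, varied widely inside the epidermal group. It had 29.8, 164 and 141 CPM in epidermal, 57.2 and 34.5 CPM in CCR6+, 73.7 and 60.7 CPM in Sca1+ and 47.3, 65.4 and 67.6 CPM in subcutaneous libraries. The first epidermal library was the lowest of all 10 and the other two epidermal libraries were the highest. With all libraries and the count filter no comparison was called by edgeR, with epidermal minus subcutaneous at 0.89 ± 0.50 on the log2 scale (edgeR adjusted p = 0.247). Without a filter beyond 1 count, epidermal ILCs were called as higher than subcutaneous (edgeR adjusted p = 0.0109) and CCR6+ ILCs (0.00166). Without epidermal replicate 1 the epidermal level was called as higher than in subcutaneous (edgeR adjusted p = 0.00654), CCR6+ (0.00779) and Sca1+ ILCs (0.0306). Per 1000 CPM of keratinocyte genes, S100a16 ran from 9.87 to 31.2 CPM in the epidermal and dermal libraries and from 190 to 618 CPM in the subcutaneous ones, so it did not track that sum as S100a14 did.

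**Figure D4:**
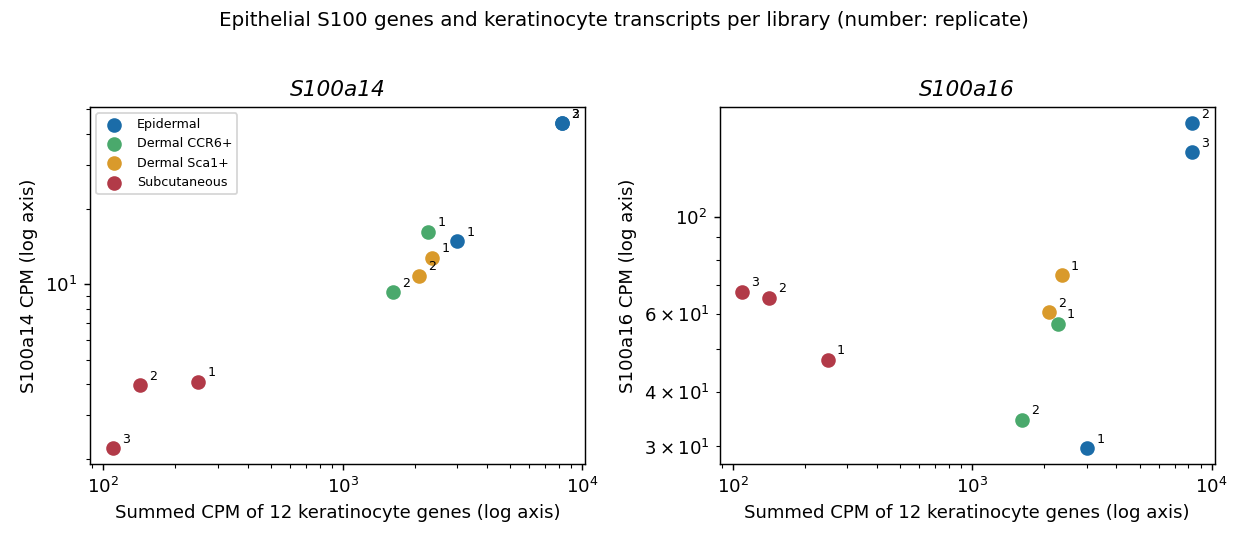
CPM of S100a14 (left) and S100a16 (right) against the summed CPM of 12 keratinocyte genes, both on log axes, for each library with its replicate number; the points of epidermal replicates 2 and 3 coincide on the left. S100a14 runs from 2.22 to 44.1 CPM along with the keratinocyte sum, whereas the lowest S100a16 value, 29.8 CPM, belongs to an epidermal library.

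S100a8 and S100a9 encode the subunits of calprotectin, the abundant calcium- and metal-binding protein of neutrophils and of stressed keratinocytes. S100a8 had 0, 0 and 0.743 CPM in epidermal, 0.449 and 0 CPM in CCR6+, 0 and 0 CPM in Sca1+ and 2.14, 0.765 and 1.11 CPM in subcutaneous libraries, which correspond to 15 counts in the third epidermal, 7 in the first CCR6+ and 32, 11 and 14 in the subcutaneous libraries. S100a8 was detected in all 3 subcutaneous libraries and in 2 of the other 7. Epidermal and subcutaneous ILCs were not distinguished by edgeR's test (adjusted p = 0.467), while limma on log2(TPM + 1) called S100a8 as lower in epidermal ILCs (adjusted p = 0.0362). A count of 0 allows up to 3 counts, or 0.149 to 0.258 CPM depending on the library.

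S100a9 had 6 counts in the third epidermal library, 8 in the first and 23 in the second subcutaneous library and 0 in the other 7, which put it below the count filter. The detected values were 0.297, 0.536 and 1.60 CPM. Where both genes were detected, S100a8 was 2.78, 4.48 and 0.536 times S100a9 in TPM. Neutrophil genes were highest in the subcutaneous libraries, as S100a8 was, and so were the macrophage and simple epithelial sums. The third epidermal and first CCR6+ libraries held S100a8 counts and no count of a neutrophil gene. The part of any of these cells was not tested. Of 11 neutrophil genes, all were at 0 in the epidermal, CCR6+ and second Sca1+ libraries, 1 was detected in the first Sca1+ library (3.11 CPM), and 7, 5 and 6 were at 0 in the subcutaneous libraries, with sums of 302, 274 and 283 CPM. That sum came mostly from Ltf (207 CPM on average) and Lcn2 (70.8 CPM), which epithelia also express, and Retnlg and Csf3r were detected in each subcutaneous library (2.74 to 4.87 and 2.48 to 5.29 CPM) and had 0 counts in the other 7. Mpo, Elane, Camp and Ngp had 0 counts over the 3 subcutaneous libraries, Ly6g and Cxcr2 had 1 count each and Mmp8 had 3.

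Along chromosome 3, called S100 genes lay beside uncalled ones, and no difference between genes was tested. Between epidermal and subcutaneous ILCs, S100a1 was lower in the epidermis, its neighbour S100a13 was not called, and the next gene, S100a14, was higher. S100a4 was called and S100a6, 6836 bases on, was not. S100a11 was called and S100a10, 28792 bases on, was not.

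**Figure D5:**
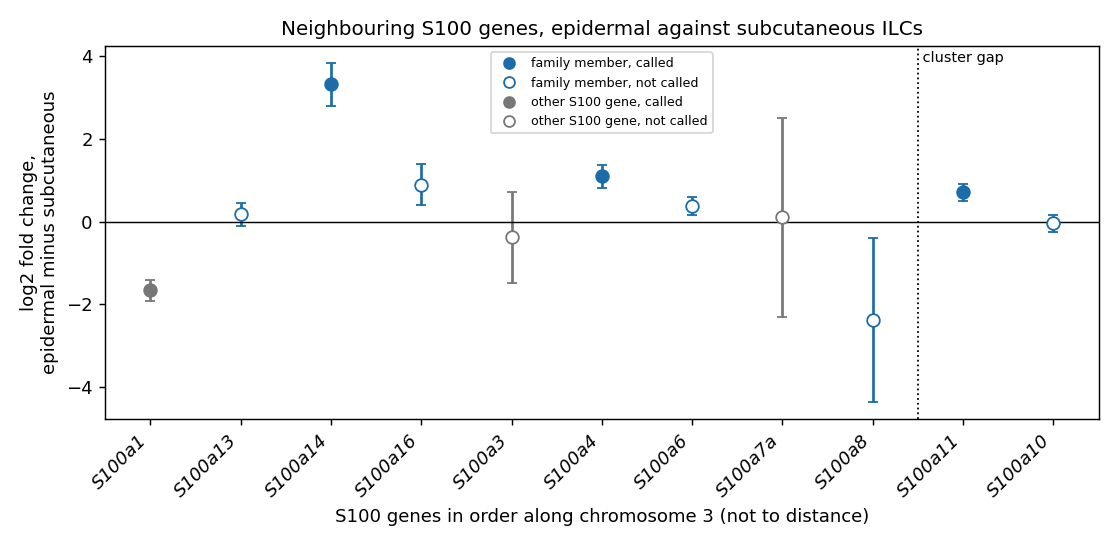
Log2 fold change, epidermal minus subcutaneous ILCs (edgeR, points with SE bars), of the tested S100 genes in their order along chromosome 3, not to distance; filled points have an adjusted p under 0.05 and the dotted line marks the gap of 2824766 bases. Called genes lie beside uncalled ones, with S100a14 at 3.32 and S100a1 at -1.66, and the wide bars belong to genes of few counts.

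Of 9 further S100 genes, 8 were in the files and 4 were tested, S100a1, S100a3, S100a7a and S100b. Apart from S100a1, the call was S100b, an astrocyte and Schwann cell gene, which had 0 counts in all epidermal libraries, 8.34 and 0.132 CPM in CCR6+, 4.89 and 3.52 CPM in Sca1+ and 0.0669, 4.10 and 3.49 CPM in subcutaneous libraries. It was called as lower in epidermal than in subcutaneous (edgeR adjusted p = 0.0391) and Sca1+ ILCs (0.0489), calls that were lost on leaving out any epidermal replicate (0.0782 to 0.11). The first was lost too without subcutaneous replicate 2 (edgeR adjusted p = 0.0834) or 3 (0.0787), and the second without Sca1+ replicate 1 (0.11) or 2 (0.0918). S100a3 reached at most 3.41 CPM, S100a7a at most 1.91 CPM, and S100a2 had no count.

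The fused S100 genes join an S100 domain to long repeats and belong to the cornified envelope. Of 7, 4 were tested, and Flg (filaggrin), Flg2 and Hrnr (hornerin) were called as higher in the epidermal libraries in all 3 comparisons with the other groups. Of all genes, 20.2% were called against subcutaneous, 6.18% against CCR6+ and 11.4% against Sca1+ ILCs. Flg2 had 22.5, 94.0 and 46.0 CPM in the epidermal libraries, 0.257 CPM in the first CCR6+ library and 0 in the other 6. Flg had 4.01, 17.1 and 9.22 CPM and Hrnr 6.02, 19.2 and 21.3 CPM in the epidermal libraries. Flg had at most 0.278 CPM elsewhere, and Hrnr had 0 in all 7 other libraries. The keratinocyte sum was 3014, 8260 and 8278 CPM in epidermal replicates 1 to 3. Flg, Flg2 and Hrnr were all lowest of the epidermal libraries in replicate 1. The part of keratinocyte RNA in these values was not tested. The calls of Flg2 held whichever library was left out. Those of Flg were lost without epidermal replicate 2 in all 3 comparisons (edgeR adjusted p 0.0563 to 0.0819), without epidermal replicate 3 (0.0627) or either CCR6+ replicate (0.0889 and 0.0927) against CCR6+, without either Sca1+ replicate (0.0667 and 0.0761) against Sca1+ and without subcutaneous replicate 3 (0.0544) against subcutaneous ILCs. The call of Hrnr against CCR6+ ILCs was lost without epidermal replicate 2 (0.0586) or 3 (0.0613). DESeq2 did not call Hrnr against CCR6+ (adjusted p = 0.11) or Sca1+ ILCs (0.0929). S100a14, unlike these genes, was detected in all 10 libraries.

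Among 12 genes of S100 binding partners, all tested, Anxa2 was called as higher and Anxa5, Plat and Fgf1 as lower in epidermal than in subcutaneous ILCs. Of all genes, 6.87% were called as higher and 13.3% as lower in that comparison. The call of Fgf1 was lost without epidermal replicate 3 (edgeR adjusted p = 0.0535). Between CCR6+ and subcutaneous ILCs, Anxa2 and Anxa6 were called as higher, and leaving out any 1 of the 5 libraries ended the call of Anxa6 (edgeR adjusted p 0.0578 to 0.274). Between these populations 3.75% of all genes were called as higher in CCR6+. Anxa5 and Fgf1 were called as lower in epidermal than in CCR6+ ILCs, where 6.18% of all genes were called. Plat and Fgf1 were called as lower in epidermal than in Sca1+ ILCs, where 11.4% were called. Leaving out any 1 of the 5 libraries ended the calls of Anxa5 and Fgf1 against CCR6+ ILCs. Plat had 0, 0 and 2.13 CPM in epidermal and 17.1 and 11.1 CPM in Sca1+ libraries. Its call against Sca1+ ILCs was lost without epidermal replicate 1 or 2 or either Sca1+ replicate. Fgf1 had 0 counts in all epidermal libraries and the first Sca1+ library, and 200 in the second. Its call against Sca1+ ILCs was lost without any 1 epidermal replicate. Without Sca1+ replicate 2 its log2 fold change was 0. Anxa5, an annexin that binds membrane phospholipids, had 307, 329 and 361 CPM in epidermal and 476, 688 and 722 CPM in subcutaneous libraries (log2 fold change -0.92 ± 0.19, edgeR adjusted p = 0.00634), the opposite direction from Anxa2. Anxa1, the partner of S100a11, had 635 ± 155 CPM (SD, n = 3) in epidermal and 629 ± 102 CPM (n = 3) in subcutaneous ILCs, a log2 difference of 0.01 ± 0.21 (edgeR adjusted p = 0.977). The TPM ratio of S100a11 to Anxa1 was therefore 7.46 to 8.52 in the epidermal and 4.11 to 6.59 in the subcutaneous libraries, and it was highest, at 13.3 and 15.9, in the CCR6+ libraries.

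Receptors for released S100 proteins made a list of 6 genes, of which 5 were tested. Cd14, Cd36 and Tlr4 were called as lower in epidermal than in subcutaneous ILCs, while Bsg and Ly96 were not called. Of all genes, 13.3% were called as lower in that comparison. Cd14 and Cd36 were also called as lower in epidermal than in CCR6+ and Sca1+ ILCs, where 6.18% and 11.4% of all genes were called. Cd14 (log2 fold change -5.13, edgeR adjusted p = 0.00382) and Tlr4 (-2.94, 0.0181) were called as lower in CCR6+ than in subcutaneous ILCs. There 7.46% of all genes were called. Cd14 was called as lower in Sca1+ than in subcutaneous ILCs too (-3.88, edgeR adjusted p = 0.0251), where 2.20% were called. It was lost without subcutaneous replicate 1 or 2 or either Sca1+ replicate. The CCR6+ call of Tlr4 was lost without subcutaneous replicate 2 or either CCR6+ replicate. Cd14, a co-receptor of TLR4 known from monocytes and macrophages, had 0, 1.18 and 0.347 CPM in epidermal, 6.87 and 12.3 CPM in CCR6+, 15.4 and 30.2 CPM in Sca1+ and 354, 452 and 199 CPM in subcutaneous libraries. Tlr4 had 7.48, 10.6 and 9.56 CPM in epidermal and 24.6, 39.5 and 19.4 CPM in subcutaneous libraries (log2 fold change -1.60 ± 0.50, edgeR adjusted p = 0.0477), and leaving out any 1 of the 6 libraries ended this call (0.0582 to 0.174). Between epidermal and subcutaneous libraries the macrophage sum moved with these genes, and over all groups with Cd14. Tlr4 did not follow that sum between the epidermal and CCR6+ libraries. The CCR6+ libraries held 2.76 and 4.49 CPM of Tlr4, below every epidermal library. Their macrophage sums were 241 and 179 CPM, above the 1.81 to 5.80 CPM of the epidermal libraries. The Sca1+ libraries held 6.23 and 19.8 CPM of Tlr4 at sums of 347 and 691 CPM, both higher than in the CCR6+ libraries. Cd36 was 118 CPM in the first CCR6+ and 113 CPM in the first subcutaneous library, where the sums were 241 and 4127 CPM. The part of macrophage RNA was not tested. Ager, the gene of RAGE, had at most 0.193 CPM.

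Likeness of pattern was measured by Pearson's r of log2 CPM over the 10 libraries among 6798 or 6799 genes with a mean of at least 20 CPM, and is a description in which all points share their libraries and depth. The genes most like S100a4 were Uqcrq (r = 0.970), Gcat (0.969) and Ndufv3 (0.951), and those most like S100a6 were Tm2d3 (0.961), Tmsb10 (0.944) and Bax (0.942). For S100a11 they were Ints5 (0.967), Otub1 (0.949) and Tecr (0.946). S100a10 was most like Cetn2 (0.937), Ndufa13 (0.927) and Bloc1s1 (0.924), and S100a13 most like Phpt1 (0.976), Ndufa13 (0.952) and Selenow (0.952). S100a14 was most like Perp (0.986), which is in the keratinocyte list, Tmem45a (0.984) and Lgals7 (0.971), and S100a16 most like Gng5 (0.967), Sec22a (0.921) and Fxyd3 (0.917). For S100a8 they were Rad23b (0.905), Hbb-bs (0.883) and Fam210b (0.879), on few S100a8 counts. Within the family, S100a4 and S100a6 had an r of 0.890 and S100a10 and S100a13 an r of 0.885, while S100a10 and Anxa2 had an r of 0.269 and S100a14 and S100a1 an r of -0.81.

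Replicate 1 of the epidermal and of the subcutaneous group was low in several short members. Both were the lowest of their groups in S100a4, S100a6, S100a10, S100a13 and S100a16. The subcutaneous one was not the lowest in S100a11 and was the highest of its group in S100a8 and S100a14. The share of counts in genes under 1000 bases of effective length was 19.0% in the epidermal and 18.3% in the subcutaneous one. That share was 21.1% to 28.7% in the other 8 libraries. S100 transcripts are short, with effective lengths from 197 to 215 bases for S100a8 to 798 to 832 bases for S100a16. The long genes Ahnak and Myh9, both S100 partners, were highest in these libraries, with Myh9 at 544 CPM in the epidermal and 287 CPM in the subcutaneous one against 150 to 243 CPM in the other 8. The part of this in the S100 values was not tested. With both libraries removed, 4 of the 8 tested members were called between epidermal and subcutaneous ILCs in place of 3. The number of all genes called was 2276 in place of 3268.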

How the data were processed

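RNA of sorted skin ILCs was prepared with a SMART-Seq low-input kit and Nextera XT, per the labels' protocols, which keeps no strand. RSEM, STAR, Trimmomatic and the mm10 build are named in the submitters' processing notes, with versions and settings not given in the sources used here. The deposited expected counts are RSEM's estimates of reads per gene, per the file headers. TPM and FPKM are the deposited RSEM abundances, per the file headers, and FPKM was not tested. Samples were grouped by title; 2 libraries were analysed for either dermal population, although the design text speaks of triplicates. Of 47643 gene IDs, 47224 carried a symbol of GENCODE M21, 39106 of them in the same version, and all 9 members matched in version. Replicates differed by more than sampling noise (chi-square per degree of freedom at least 42.8).

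Expected counts were rounded, filtered by edgeR's filterByExpr (count minimum 10, 16208 genes) and fitted with TMM in 1 quasi-likelihood model of 4 groups (edgeR 4.0.16, R 4.3.3; biological coefficient of variation 0.62), two-sided, with Benjamini-Hochberg adjustment over all genes within each of 6 comparisons. The SE is the absolute log2 fold change over the square root of F, derived and not a model output. CPM used unrounded counts. Library totals of 11627222 to 18118544 give, after TMM scaling, 0.149 to 0.258 CPM for 3 counts; these floors cover counting error only. The fit was tested on simulated data for epidermal against subcutaneous libraries. The simulation had less spread than these libraries and larger changes than most members showed, so it does not cover changes of their size. Alternatives were RLE factors, DESeq2 1.42.0, limma 3.58.1 (trend) on log2(TPM + 1), other filters, 2-group fits, replicate blocks and leaving out each library, and, chosen after seeing the data, a gene length offset and the removal of 2 libraries together. The members, lists and tests were chosen with earlier results of these data known. Named genes were the members, the measured genes of the S100, partner and receptor lists, and for each member the 3 most correlated genes with a mean of at least 20 CPM, without predicted, mitochondrial or ribosomal protein genes; the 11 genes of the neutrophil list are named as well. Promoter sequences are RefSeq's (GRCm38.p6). A comparison of the proteins was not run. A further gene of the ILC list and the sum over that list are not reported here.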

Additional observations from a re-analysis of the deposited data

How the results depend on the processing

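No called member changed direction under any alternative run, and the calls of S100a14 between epidermal and subcutaneous ILCs held in all. The count of S100 members called, with all genes called in parentheses, changed as follows. Leaving out each library in turn gave 1 to 4 members (2280 to 3048 genes) between epidermal and subcutaneous ILCs, against 3 (3268); 0 to 1 (732 to 1081) between epidermal and CCR6+, against 0 (1001); 0 to 0 (35 to 155) between CCR6+ and Sca1+, against 0 (104); 0 to 0 (157 to 219) between Sca1+ and subcutaneous, against 0 (357); 0 to 2 (1192 to 1768) between epidermal and Sca1+, against 0 (1848); and 0 to 2 (435 to 965) between CCR6+ and subcutaneous, against 1 (1209). The lone library left in a dermal group was then assumed to vary like the other groups.

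DESeq2 called 1 member between Sca1+ and subcutaneous, 1 between epidermal and Sca1+ and 4 between CCR6+ and subcutaneous ILCs. Its counts over all genes were 2001 for epidermal and CCR6+, 557 for CCR6+ and Sca1+, 1193 for Sca1+ and subcutaneous, 2919 for epidermal and Sca1+ and 2319 for CCR6+ and subcutaneous. Limma on log2(TPM + 1) called 5 members between epidermal and subcutaneous ILCs (4123 genes) and 1 between epidermal and CCR6+ ILCs (1030). It called 5 between Sca1+ and subcutaneous (818), 1 between epidermal and Sca1+ (2317) and 4 between CCR6+ and subcutaneous ILCs (1899). Without a filter beyond 1 count, 1 member was called between epidermal and CCR6+, 2 between Sca1+ and subcutaneous and 3 between CCR6+ and subcutaneous ILCs, with 2028, 1328 and 2292 genes, and 647 genes between CCR6+ and Sca1+ and 2918 between epidermal and Sca1+. A filter of 5 CPM gave 3 members between CCR6+ and subcutaneous ILCs, with 1359 genes. Fits of only 2 groups gave 2 members between epidermal and subcutaneous ILCs, with 3342 genes. They gave 618 genes for epidermal and CCR6+, 47 for CCR6+ and Sca1+ and 560 for Sca1+ and subcutaneous. With epidermal and subcutaneous replicate 1 both removed, 1 member was called between epidermal and CCR6+ ILCs (1023 genes). In that setting 2 were called between epidermal and Sca1+ (1706) and 2 between CCR6+ and subcutaneous ILCs (962). The causes were not tested.

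The share of higher calls moved by over 10 percentage points with DESeq2 for Sca1+ minus subcutaneous (486 higher and 707 lower, against 196 and 161) and epidermal minus CCR6+ (585 and 1416, against 160 and 841), and with limma for these (344 and 474; 360 and 670), epidermal minus Sca1+ (888 and 1429, against 445 and 1403) and epidermal minus subcutaneous (2002 and 2121, against 1113 and 2155), where the median of all genes was 0.11 in place of -0.02. It also moved for Sca1+ minus subcutaneous in the fit of 2 groups (200 and 360) and without a filter beyond 1 count (523 and 805), for CCR6+ minus subcutaneous in the fit of 2 groups (520 and 825, against 608 and 601), and for CCR6+ minus Sca1+ without replicate 1 of CCR6+ (38 and 117, against 48 and 56) or of Sca1+ (15 and 28).

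The replicate numbers gave little sign of pairing. Deviations of same-numbered libraries from their group means had correlations of -0.04 to 0.11 over 13 pairs, 1 of them over 0.1. That pair was epidermal replicate 1 with subcutaneous replicate 1. In a dermal group of 2 libraries the deviations mirror each other, so the pairs are not independent. These correlations cannot show whether same-numbered samples share an animal or a batch. A replicate block by title number left 2 members and 2667 genes called between epidermal and subcutaneous ILCs, without S100a11 (edgeR adjusted p = 0.06). It left 64 genes between CCR6+ and Sca1+, 203 between Sca1+ and subcutaneous and 668 between epidermal and CCR6+. With this block the calls against CCR6+ ILCs of Flg (edgeR adjusted p = 0.0534), Flg2 (0.0535) and Hrnr (0.0842) and that of Hrnr against Sca1+ ILCs (0.0582) were lost. A block of libraries with neighbouring numbers in their deposited names left 3 members and 3071 genes between epidermal and subcutaneous ILCs. With it, Hrnr against CCR6+ ILCs was not called (edgeR adjusted p = 0.0589). For genes of few counts, such as S100a8 and S100a9, depth limits what can be compared.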
